A study of Homo sapiens with 4 samples.

Results

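The small nuclear RNA genes of 3 annotated kinds were described, namely small nucleolar RNA (snoRNA), small Cajal body-specific RNA (scaRNA) and small nuclear RNA (snRNA). Genes with these biotypes in the deposited table were taken when they had fragments in at least 2 of the 4 libraries. The members were therefore chosen by their measured level, and their detection is no result. The table lists 3035 such genes, 963 snoRNA, 47 scaRNA and 2025 snRNA, of which 181 met the rule. Genes listed next to each other with identical values in all columns were treated as 1 merged locus, and this gave 122 loci. Of these, 80 shared their values with a protein-coding gene and were left out. The 42 loci that remained hold 59 of the 3035 genes and count as 27 snoRNA, 6 scaRNA and 9 snRNA members.

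SnoRNAs act in the nucleolus, where box C/D snoRNAs guide ribose methylation and box H/ACA snoRNAs guide pseudouridylation of ribosomal RNA, while a few, such as U3 and U17, are needed to cut its precursor. ScaRNAs carry the same boxes and guide the same modifications on the snRNAs of the spliceosome, in the Cajal body. Most human guide RNAs are cut from introns, often of noncoding small nucleolar RNA host genes (SNHG genes), and the U3 genes have promoters of their own. Ribosome production is a large demand on the dividing cells of the colon epithelium and is raised in many colorectal tumours.

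The libraries came from a pair of human lines, HT-29, established from an adenocarcinoma of the colon, and NCM460, an epithelial line from normal colon. Each line was grown untreated (control) or with 100 μg/mL sturgeon chondroitin sulfate (SCS), a sulfated cartilage polysaccharide, for 24 h. Each of the 4 groups holds 1 library of total RNA, so no difference could be checked against replicates and no p-value was computed within a line. Intervals of single loci and of shares cover counting error only. In bulk RNA, fewer cells and less RNA per cell cannot be told apart. Whole fragments recovered from the deposited columns summed to 1654764 and 1605372 for the control and SCS cultures of HT-29 and to 1347854 and 1156568 for those of NCM460. Mitochondrial genes held 35.8%, 13.8%, 62.3% and 46.3% of them in that order, and the part of this difference in the results was not tested.

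The colon label was checked on 12 epithelial markers, of which 10 were above 0 in untreated and 9 in treated HT-29 cells and 6 in each NCM460 library. Their summed level, in CPM, which are fragments scaled to library size with edgeR's TMM factors, was 6532 and 3574 in HT-29 and 4346 and 2659 in NCM460, control before SCS. The most abundant was the keratin gene KRT8 in HT-29 (3433 CPM untreated, 1464 CPM with SCS) and in untreated NCM460 (1805 CPM), and KRT19 in NCM460 with SCS (1063 CPM). The intestinal transcription factor CDX1 was at 0 in every library, CDX2 was at 0 in HT-29, and the villus protein gene VIL1, KRT20, LGALS4, PHGR1 and CEACAM5 were at 0 in NCM460. NCM460 thus lacked 6 of the 12 markers, CDX1 among them. The summed level of 9 mesenchymal markers was 4.89 and 7.49 CPM in HT-29 and 42.4 and 28.7 CPM in NCM460, with CDH2, COL1A2, COL3A1 and DCN at 0 in every library. The leukocyte markers PTPRC and CD3E were at 0 in every library, the lysozyme gene LYZ stood at 295 and 146 CPM in HT-29 and 0 in NCM460, and 3 endothelial markers summed to at most 1.85 CPM.

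Among genes listed on their own the rule took long ones, which is a description of the choice and not a result. Of genes so listed, 0 of 2560 shorter than 150 bases had fragments in 2 or more libraries. From 150 bases to under 200, 7 of 228 did (3.07%), and at 200 bases or more 11 of 81 (13.6%), which were 7 of 71 snoRNA, 4 of 7 scaRNA and 0 of 3 snRNA genes. By listed length the shortest member listed on its own was SNORA59B with 152 bases, although its longest annotated transcript has 701. The shortest with 10 fragments or more was SNORA23 with 182. The medians of annotated SNORD and SNORA transcripts are 82 and 134 bases. Why shorter genes were listed at 0 was not tested. A total of 2846 of the 3035 genes were at 0 in every library.

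**Figure D1:**
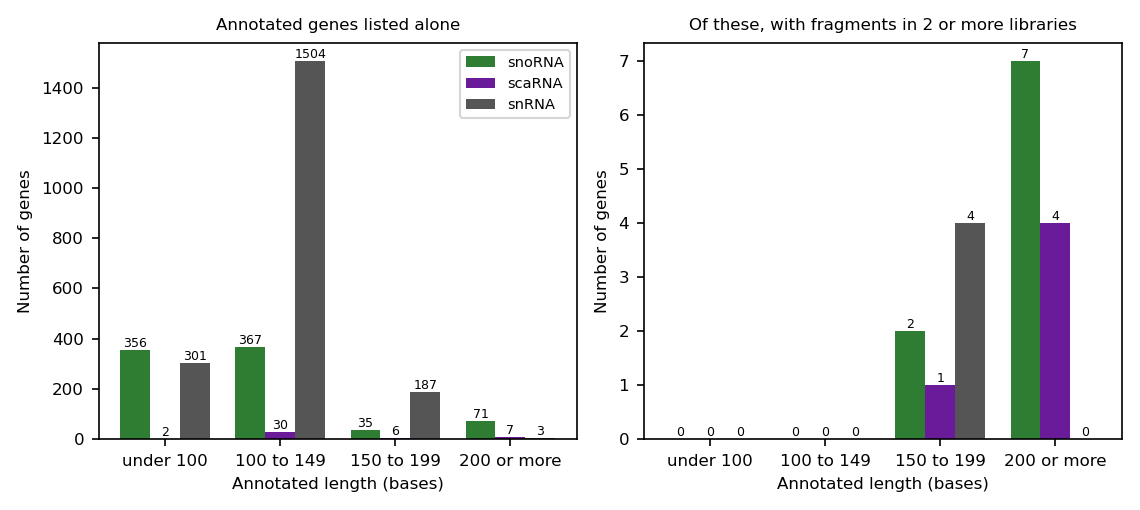
Number of annotated snoRNA, scaRNA and snRNA genes listed on their own (left) and number of these with fragments in 2 or more libraries (right), by annotated length in bases. None of the 2560 genes under 150 bases was detected in 2 libraries, against 11 of 81 genes of 200 bases or more.

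The classes were retained unequally. Of 384 box C/D genes 81 met the rule and 56 of these shared a locus with a protein-coding gene, which left 11 member loci. Of 425 box H/ACA genes 55 met it and 38 were so merged, which left 14. The major spliceosomal class lists 1533 genes, of which 1507 were at 0 in every library and 22 met the rule. Of these 22, 16 were merged with protein-coding genes, and 6 member loci were left. All 59 genes with the snRNA biotype in the minor spliceosomal class and all 42 snoRNA genes of the imprinted cluster on chromosome 14 were listed at 0 (the U12 gene RNU12 is listed under another biotype), and the 2 detected genes of the U7 class, whose RNA serves histone messenger RNA, were merged with protein-coding genes. The imprinted cluster of chromosome 15 gave 1 member, in which 7 SNORD115 and SNORD116 genes share the values of the host SNHG14, with 5, 5, 0 and 1 fragments. Here and in what follows the 4 values of a locus stand for HT-29 untreated and treated, then NCM460 untreated and treated.

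Of the 42 members, 19 were free-standing, meaning that their values belonged to small RNA genes only, and 23 shared them with another kind of noncoding gene, mostly an SNHG gene whose spliced RNA may supply the fragments. Among the members 26 had fragments in all 4 libraries, 6 in 3 and 10 in exactly 2. Those 10, just inside the rule, had no more than 8 fragments in a library, and 13 members had fewer than 10 fragments in total. Just outside it stood 5 loci with fragments in 1 library. They were the U3 copy SNORD3C (1 fragment, HT-29 with SCS), SNORD91B (1 fragment, HT-29 control), and RNVU1-4 and a pair of U1 genes, which had 1, 1 and 2 fragments in the NCM460 control. In 7 members the listed genes lie on different chromosomes, since unlike genes carry the same symbol, and the single-gene identity of these is uncertain. Those of them called in a line were SNHG8 with SNORA24 and SNHG7 with SNORA17 and SNORA43, both in HT-29.

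The U3 snoRNA, which is needed for the early cuts of the ribosomal RNA precursor, is encoded by near-identical copies on chromosome 17. SNORD3A (ENSG00000277813) is listed at chr17:19188016-19188233 of GRCh38, on the plus strand, and SNORD3B-2 (ENSG00000281187) at chr17:19063920-19064136, on the minus strand. Their transcripts of 217 bases in GENCODE release 29 are shown together because fragments of one cannot be fully separated from those of the other. The longest annotated transcripts of these genes have 699 and 791 bases. Which transcript gave the fragments was not tested. Capitals mark TGATGA and CTGA, the letters of boxes C and D, searched on the RNA's own strand, where no match of one overlaps a match of the other.
SNORD3A: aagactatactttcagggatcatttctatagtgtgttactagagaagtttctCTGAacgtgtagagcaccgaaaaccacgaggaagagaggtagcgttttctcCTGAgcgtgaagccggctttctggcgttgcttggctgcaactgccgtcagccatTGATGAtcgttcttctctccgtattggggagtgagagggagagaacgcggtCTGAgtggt
SNORD3B-2: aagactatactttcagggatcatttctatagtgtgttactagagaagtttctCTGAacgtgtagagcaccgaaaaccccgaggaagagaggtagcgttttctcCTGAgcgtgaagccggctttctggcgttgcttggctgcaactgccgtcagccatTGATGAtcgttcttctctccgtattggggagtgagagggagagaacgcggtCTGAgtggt
Counted from 1 at the 5′ end of SNORD3A, SNORD3B-2 and SNORD3B-1 differ from it by A78C (99.5% identical), SNORD3C by G108A, and SNORD3D by A4G, C53T and A78C (98.6% identical). Of 278 annotated SNORD transcripts, with a median of 82 bases, 77.3% hold TGATGA and 98.2% hold CTGA.

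The other free-standing RNAs on which the comparisons turn are likewise long for their class. SNORD17, a box C/D guide for large subunit ribosomal RNA, lies on the minus strand at chr20:17962710-17962946, in an intron of SNX5. SNORA73B, also called U17b, an H/ACA RNA that acts in cutting of the ribosomal RNA precursor, lies on the plus strand at chr1:28508559-28508762, in an intron of SNHG3. SCARNA13, a pair of H/ACA domains in tandem that guides changes on spliceosomal snRNAs, lies on the minus strand at chr14:95533355-95533629, in an intron of SNHG10. SCARNA7 (U90), a box C/D scaRNA that guides methylation of the U1 snRNA, lies on the minus strand at chr3:160514907-160515236, in an intron of the nuclear import gene KPNA4. These are the GRCh38 positions, and the sequences, from GENCODE release 29, are shown because these free-standing members were called in at least 1 line. Capitals mark the same box letters, or in the H/ACA RNAs the ACA that ends 3 bases before the 3′ end, and of SCARNA7 bases 1 to 300 of 330 are given.
SNORD17: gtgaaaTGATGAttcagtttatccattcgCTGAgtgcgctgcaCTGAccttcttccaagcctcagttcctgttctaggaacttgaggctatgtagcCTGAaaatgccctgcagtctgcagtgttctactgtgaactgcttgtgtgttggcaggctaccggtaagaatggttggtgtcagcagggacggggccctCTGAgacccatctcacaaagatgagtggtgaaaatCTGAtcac
SNORA73B: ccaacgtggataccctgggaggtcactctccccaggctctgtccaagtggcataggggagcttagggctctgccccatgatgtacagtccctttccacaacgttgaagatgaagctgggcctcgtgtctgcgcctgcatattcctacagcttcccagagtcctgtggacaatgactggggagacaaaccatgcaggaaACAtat
SCARNA13: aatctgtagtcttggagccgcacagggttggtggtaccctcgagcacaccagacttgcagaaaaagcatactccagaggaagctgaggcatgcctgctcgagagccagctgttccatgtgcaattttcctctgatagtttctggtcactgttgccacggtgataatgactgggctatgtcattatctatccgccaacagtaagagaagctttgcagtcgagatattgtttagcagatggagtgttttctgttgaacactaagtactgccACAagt
SCARNA7: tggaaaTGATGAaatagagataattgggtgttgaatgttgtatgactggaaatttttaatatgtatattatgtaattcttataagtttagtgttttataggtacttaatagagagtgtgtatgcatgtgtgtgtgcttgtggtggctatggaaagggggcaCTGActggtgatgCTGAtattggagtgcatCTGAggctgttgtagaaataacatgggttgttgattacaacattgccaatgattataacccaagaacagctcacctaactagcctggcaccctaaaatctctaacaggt
An ACA at this place was found in 76.2% of 147 annotated SNORA transcripts (median 134 bases) and in 58.3% of 24 SCARNA transcripts (median 139.5 bases).

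SNORD3A had the highest mean level in CPM over the 4 libraries, although in HT-29 with SCS its 48.3 CPM were below the 343 of SCARNA7 and the 159 of SNORA73B. Among free-standing members, SNORD3A had a mean of 3419 CPM per kilobase of listed length. SNORA73B had 655, SCARNA7 638, SNORD17 373, SCARNA5 354 and SNORD3B-2 47.1. The listed lengths of SNORD3A and SNORD3B-2 are 218 and 217 bases, while their longest annotated transcripts have 699 and 791. By those transcripts both values per kilobase would be lower. By the deposited FPKM, which use effective lengths, SNORA73B (3008, 6144, 3169 and 4721) stood above SNORD3A in every library (1483 and 1407 in the controls and 3434 in NCM460 with SCS, and lowest in HT-29 with SCS). The members together made up 0.305% of nuclear fragments (95% Clopper-Pearson interval 0.295 to 0.316) in untreated and 0.251% (0.243 to 0.260) in treated HT-29 cells. In NCM460 these shares were 0.343% (0.327 to 0.359) and 0.517% (0.499 to 0.535). The share was thus lower with SCS in HT-29 and higher in NCM460. SNORD3A alone held 38.9%, 3.34%, 30.1% and 55.4% of the members' fragments. Without it, snoRNA members held 0.118% and 0.155% of nuclear fragments in HT-29 and 0.176% (0.165 to 0.188) and 0.196% (0.185 to 0.207) in NCM460. This share was higher with SCS in HT-29. In NCM460 it was also the higher one with SCS. The intervals there overlapped, which does not show that the shares are equal.

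ScaRNA members had 0.0663% (0.0615 to 0.0714), 0.0867% (0.0819 to 0.0918), 0.0595% (0.0530 to 0.0666) and 0.0320% (0.0277 to 0.0368) of nuclear fragments. The share was highest in HT-29 with SCS and lowest in NCM460 with SCS. Without SCARNA7 it was 0.0266% (0.0236 to 0.0298) and 0.0272% (0.0245 to 0.0301) in HT-29. In NCM460 it was then 0.0258% (0.0216 to 0.0306) and 0.0191% (0.0159 to 0.0229), still lower with SCS. The intervals of control and SCS overlapped in each line, which does not show that the shares are equal. SnRNA members had 0.00207% (0.00130 to 0.00314) and 0.00145% (0.000883 to 0.00223) in HT-29 and 0.00394% (0.00241 to 0.00608) and 0.00273% (0.00159 to 0.00438) in NCM460. The snRNA intervals of control and SCS overlap in each line, at few fragments, and their difference was not tested.

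**Figure D2:**
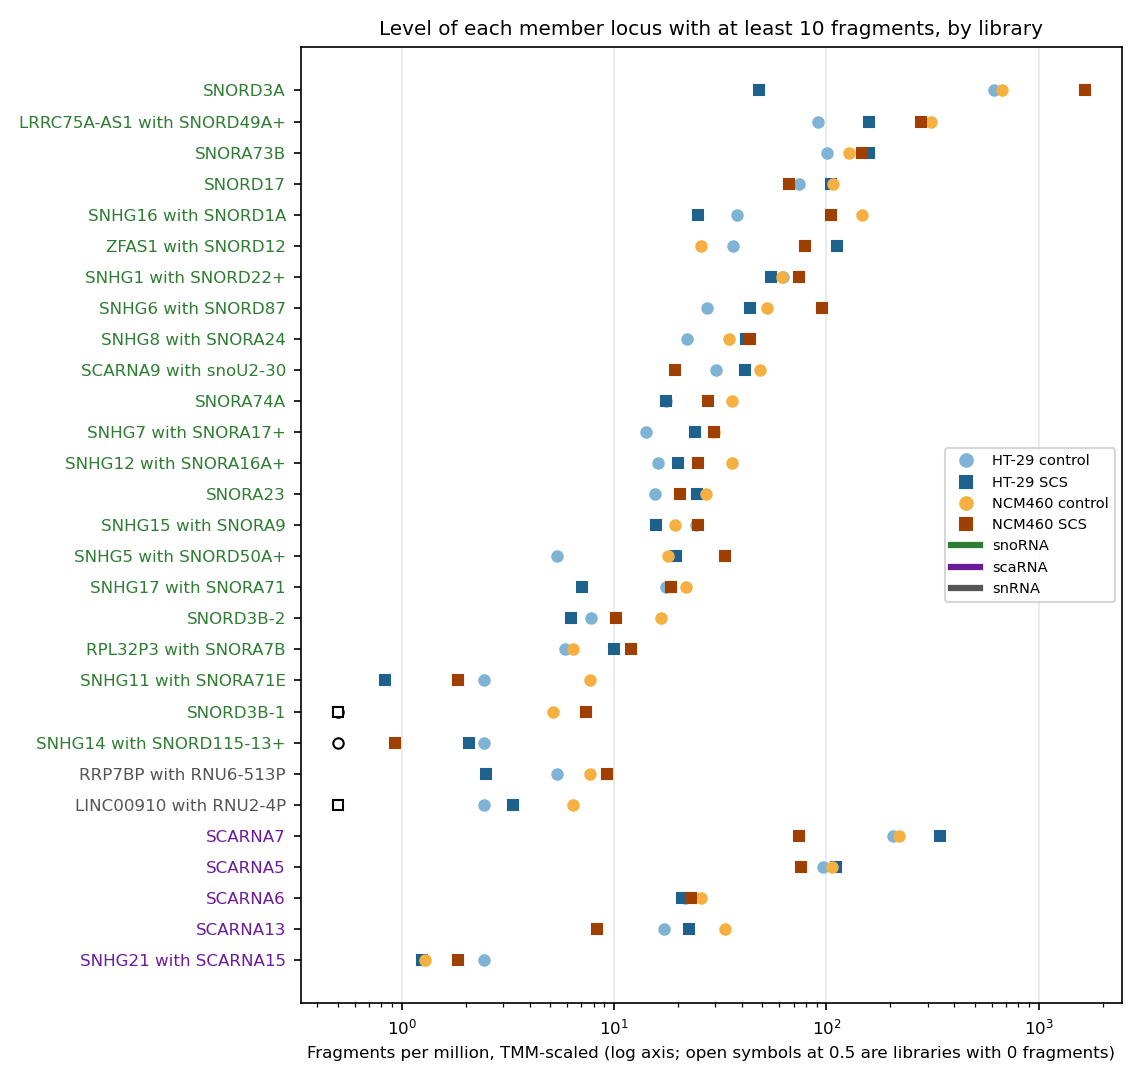
TMM-scaled CPM on a log axis of each member with at least 10 fragments in total, 1 symbol per library, with open symbols at 0.5 for libraries with 0 fragments. SNORD3A spans from 48.3 CPM in HT-29 with SCS to 1646 CPM in NCM460 with SCS, and SCARNA7 from 74.0 CPM in NCM460 with SCS to 343 CPM in HT-29 with SCS.

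In HT-29 cells the comparison asks which small RNAs differ after SCS in the cancer line. SNORD3A fell far, while most called snoRNA members rose, among them the host loci of SNORD12, of SNORD50A and of SNORA24 and the free-standing SNORA73B and SNORA23. SCARNA7 was the 1 scaRNA that rose, and no snRNA member was called. A locus was called when its CPM, with a prior count of 2 added, differed by more than 1.5-fold and the Clopper-Pearson interval of the log2 fold change left out 0. Of the 42 members 28 had the mean of 1 CPM needed, and 9 were called higher and 3 lower. Over all loci 16.8% of 12168 were called higher and 14.8% lower. The members' median log2 fold change was 0.30 (-0.18 to 0.65, from order statistics), beside 0.07 over all loci. Intervals of medians describe the spread over members, which share both libraries of the line and are not replicates. For scaRNA and snRNA members they run from the lowest to the highest member.

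SNORD3A had 1260 fragments (616 CPM) in untreated and 116 (48.3 CPM) in treated HT-29 cells, and 523 (672 CPM) and 1780 (1646 CPM) in NCM460. The controls of the lines were alike, the SCS library of HT-29 was far below them and that of NCM460 above. In HT-29 it fell by 3.64 on the log2 scale (-3.96 to -3.40), 12.5-fold. The copy SNORD3B-2 had 16 and 15 fragments in HT-29 and 13 and 11 in NCM460, and was not called in either. SNORD3B-1 had 0, 0, 4 and 8 fragments, and an annotated U3 gene on an alternate scaffold had 1, 1, 0 and 0. The fragments of these copies were few beside those of SNORD3A in each library.

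The locus of ZFAS1 with SNORD12, a noncoding RNA with a methylation guide in its intron, had 74, 270, 20 and 86 fragments. It was higher with SCS in each line. The log2 fold change in HT-29 was 1.60 (1.26 to 2.03). The locus of SNHG5 with SNORD50A and SNORD50B, guides for large subunit ribosomal RNA, had 11, 47, 14 and 36 fragments and rose in HT-29 by 1.65 (0.90 to 2.96). In NCM460 the SCS library was also the higher one, at 0.84 (-0.04 to 1.89), which was not called, and at 0.59 with a trend on GC content subtracted. SNHG8 with SNORA24, a pseudouridylation guide, had 45 and 100 fragments in HT-29 and 27 and 47 in NCM460, a log2 fold change of 0.88 (0.40 to 1.46) in HT-29. SNORA24 is listed on chromosome 15 and SNHG8 on chromosome 4, so which copy the locus holds is uncertain.

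LRRC75A-AS1 with SNORD49A, SNORD49B and SNORD65 was among the most abundant loci, with 187, 382, 242 and 301 fragments. Its SCS library was above the control in HT-29 by a log2 fold change of 0.79 (0.54 to 1.06), and in NCM460 the value was -0.16, which became -0.49 with a trend on GC content subtracted and 0.53 with total fragments only. SNORA73B had 205, 381, 100 and 159 fragments and rose in HT-29 by 0.66 (0.41 to 0.91). Chosen after their values were seen, the remaining snoRNA rises in HT-29 were SNHG7 with SNORA17 and SNORA43 (29 and 58 fragments, 0.72, 0.10 to 1.46), SNHG6 with SNORD87 (56 and 105 fragments, 0.65, 0.19 to 1.17) and SNORA23 (32 and 59 fragments, 0.61, 0.01 to 1.32). The last of these, an H/ACA guide for large subunit ribosomal RNA on the plus strand at chr11:9428773-9428954, stood at the edge of the call.

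The other falls in HT-29 were in a pair of host loci. SNHG17 with SNORA71, an H/ACA guide for small subunit ribosomal RNA, had 36, 17, 17 and 20 fragments, a log2 fold change in HT-29 of -1.18 (-2.24 to -0.45). In CPM the HT-29 library with SCS was the low one (7.07, against 17.6 in its control and 21.8 and 18.5 in NCM460). SNHG16 with SNORD1A had 78, 60, 114 and 114 fragments and a value of -0.59 (-1.12 to -0.11) in HT-29, just past the 1.5-fold threshold, and -0.32 when libraries were scaled by total fragments only. In CPM the control was the higher library in each line. The NCM460 value was -0.47 (-0.86 to -0.09), under the threshold, -0.96 and called lower with a trend on GC content subtracted, and 0.22 with total fragments only, so its direction in NCM460 depends on the scaling.

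By biotype in HT-29, 21 of 27 snoRNA members could be compared, 8 were called higher and 3 lower, and their median log2 fold change was 0.43 (-0.28 to 0.66), with a range from -3.64 to 1.65. Of 6 scaRNA members 5 could be compared, 1 was called higher and none lower, with a median of 0.20 (-0.56 to 0.73). Of 9 snRNA members 2 could be compared and none was called, with a median of -0.26. Among snoRNAs, box C/D members had a median of 0.17 (10 compared, 4 higher, 2 lower) and box H/ACA members 0.45 (10 compared, 4 higher, 1 lower). With the GC trend subtracted 6 members were higher and 3 lower, and SCARNA7, SNORA23 and SNHG6 with SNORD87 were no longer called. The fold of SNORA23 was then hardly changed (0.60), with an interval that reached 0. Of all loci called, 47.5% were higher with this trend subtracted, against 53.1% before. By DESeq2's size factors or the scale of the deposited columns 8 members were higher and 4 lower. SNORA23 (0.594) was then no longer called, and SNHG15 with SNORA9 (-0.605) was called lower. The share of all loci called is not given for these alternative settings, so their counts are not read as results about the members. Free-standing members gave 3 rises and 1 fall of 10, and members merged with another kind of gene 6 rises and 2 falls of 18. The snoRNA and scaRNA medians were above 0 under every scaling and trend tried, and the snRNA median below 0, whereas the snRNA median was 0.26 when all snRNA members with 1 fragment or more in the line were used.

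In NCM460 cells the same comparison was made in the line used as normal colon. SNORD3A and the loci of SNORD12 and SNORD87 rose with SCS, and falls were seen in the scaRNAs SCARNA7 and SCARNA13, in SNORD17, in the locus of SCARNA9 and in 1 snRNA locus. Of 42 members 37 could be compared, 3 were called higher and 5 lower, beside 15.4% of 12657 loci called higher and 13.8% lower. The median of the members was -0.22 (-0.39 to 0.19), and that of all loci 0.03. The median is the value of members with 1 fragment in each NCM460 library, 5 in number, and so is no more than the scaling between single fragments. Across loci, the log2 fold changes in NCM460 followed the GC content of the annotated transcripts, with a Spearman's rho of -0.63 over 12600 loci that share both libraries and are not independent, against -0.12 over 12106 loci in HT-29. Over the members the values were 0.24 (n = 37) and -0.16 (n = 28). Many values for NCM460 are for this reason also given with a lowess trend on GC content removed (GC trend subtracted).

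SNORD3A, with its 523 and 1780 fragments, rose in NCM460 by a log2 fold change of 1.29 (1.15 to 1.44), 2.45-fold, and by 1.73 with the GC trend subtracted. The locus of ZFAS1 with SNORD12 rose by 1.58 (0.92 to 2.41), and by 2.10 with the trend subtracted. SNHG6 with SNORD87, a box C/D guide, had 41 and 103 fragments in NCM460 and a value of 0.84 (0.32 to 1.41). Its SCS library was the higher one, but with the GC trend subtracted the value was -0.04 and the call was lost. With the trend subtracted SNORA73B was called higher in its place, at 0.67 against 0.19 (-0.17 to 0.57) before.

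The scaRNA members are the methylation and pseudouridylation guides of the spliceosomal snRNAs. SCARNA7 had 422 fragments (206 CPM), 824 (343 CPM), 171 (220 CPM) and 80 (74.0 CPM). The controls were alike, and SCS stood above the control in HT-29 and below it in NCM460. Its log2 fold change was 0.73 (0.56 to 0.91) in HT-29 and -1.55 (-1.97 to -1.18) in NCM460. With the GC trend subtracted these values were 0.47, no longer called, and -2.81. SCARNA13 had 35, 54, 26 and 9 fragments, and NCM460 with SCS was the lowest library. Its value was 0.37 in HT-29, not called, and -1.85 (-3.28 to -0.87) in NCM460, where it was -2.04 with the GC trend subtracted and -1.17 with total fragments only, called lower under each. In HT-29 SCARNA13 was called higher with total fragments only, at 0.64 (0.03 to 1.33).

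SCARNA5 and SCARNA6, both in introns of the autophagy gene ATG16L1 and listed on a patch of chromosome 2, were not called in either line. SCARNA5, at chr2:233275727-233276002, had 198, 268, 83 and 82 fragments, with log2 fold changes of 0.20 in HT-29 and -0.48 (-0.95 to -0.03) in NCM460. The NCM460 value became a call with the GC trend subtracted, at -0.69, and was 0.20 with total fragments only. It was also past 1.5-fold by DESeq2's size factors (-0.59) and on the scale of the deposited columns (-0.63). SCARNA6, at chr2:233288676-233288940, had 44, 50, 20 and 25 fragments and was near the control in both lines, at -0.04 and -0.14, with a value of 0.23 in NCM460 with the GC trend subtracted. SCARNA9, whose locus counts as snoRNA through the gene snoU2-30 that it contains and which guides methylation of the U2 snRNA, had 62, 99, 38 and 21 fragments. NCM460 with SCS was again the lowest library, at -1.27 (-2.17 to -0.52), and the HT-29 value was 0.43 (-0.03 to 0.93), not called. The NCM460 value was -2.33 with the GC trend subtracted, -0.80 with the length trend subtracted and -0.60 (-1.48 to 0.17) with total fragments only, and under the last of these the call was lost.

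SNORD17 had 152, 252, 84 and 72 fragments. It was higher with SCS in HT-29, by 0.49 (0.20 to 0.80), which is under the threshold, and lower in NCM460, by a log2 fold change of -0.69 (-1.17 to -0.22). The NCM460 value was -0.00 with total fragments only and -0.10 with a trend on gene length subtracted, so the call depends on the scaling. In HT-29 SNORD17 was called higher with total fragments only, at 0.76 (0.48 to 1.07). SNHG1 with SNORD22 and other guides had 128, 132, 48 and 80 fragments and was not called in either line, at -0.18 and 0.26. Its NCM460 value was -0.50 with the GC trend subtracted and 0.93, called higher, with total fragments only.

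The snRNA members were rare and mostly pseudogene copies, so they are no measure of the snRNAs of the spliceosome. RRP7BP with RNU6-513P, a U6-like copy in a transcribed pseudogene, had 11, 6, 6 and 10 fragments and was not called, at -0.82 (-2.83 to 0.45) in HT-29 and 0.23 in NCM460. LINC00910 with RNU2-4P, a U2-like copy in a noncoding gene, had 5, 8, 5 and 0 fragments. In HT-29 its value was 0.31. Against a floor of 3 fragments it was 2.31-fold lower with SCS in NCM460. This is no lower bound, since the counting interval there reached -0.35. With total fragments only the interval reached 0.35 and the NCM460 call was lost. RNU2-63P, on chromosome 2 at chr2:88016354-88016547, was listed at 0 in HT-29 and had 6 and 2 fragments in NCM460, a log2 ratio of -2.06 (-5.40 to 0.42) that includes 0. This ratio has no prior count added, and with the prior count of 2 the value was -1.53. The interval of RNU2-63P reached -0.75 with the GC trend subtracted, and it was then called lower. The other 6 snRNA members had at most 3 fragments in a library.

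By biotype in NCM460, 25 of 27 snoRNA members could be compared, 3 were called higher and 2 lower, and the median was -0.16 (-0.39 to 0.32). All 6 scaRNA members could be compared, none was called higher and 2 lower, with a median of -0.35 (-1.85 to 0.29). Of 9 snRNA members 6 could be compared and 1 was called lower, with a median of -0.22 (-2.60 to 0.29), again the value of single fragments. These directions were not stable, since the snoRNA median was 0.59 and the scaRNA median 0.20 with total fragments only, and all 3 were above 0 (0.28, 0.23 and 0.33) with a trend on gene length subtracted. With the GC trend subtracted they were 0.02, -0.98 and -0.74, and 3 members were called higher and 8 lower. Of all loci called with this trend subtracted 47.2% were higher, against 52.7% before. The share of all loci called is not given for this setting, so its counts are not read as a result about the members. At a mean of at least 5 CPM the snoRNA median was 0.10, the scaRNA median -1.02 and the 1 snRNA member left, RRP7BP with RNU6-513P, at 0.23. Box C/D members had a median of 0.35 (10 compared, 3 higher, 1 lower) and box H/ACA members -0.22, the value of single fragments too (14 compared, none called). Free-standing members gave 1 rise and 3 falls of 16, merged members 2 rises and 2 falls of 21.

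**Figure D3:**
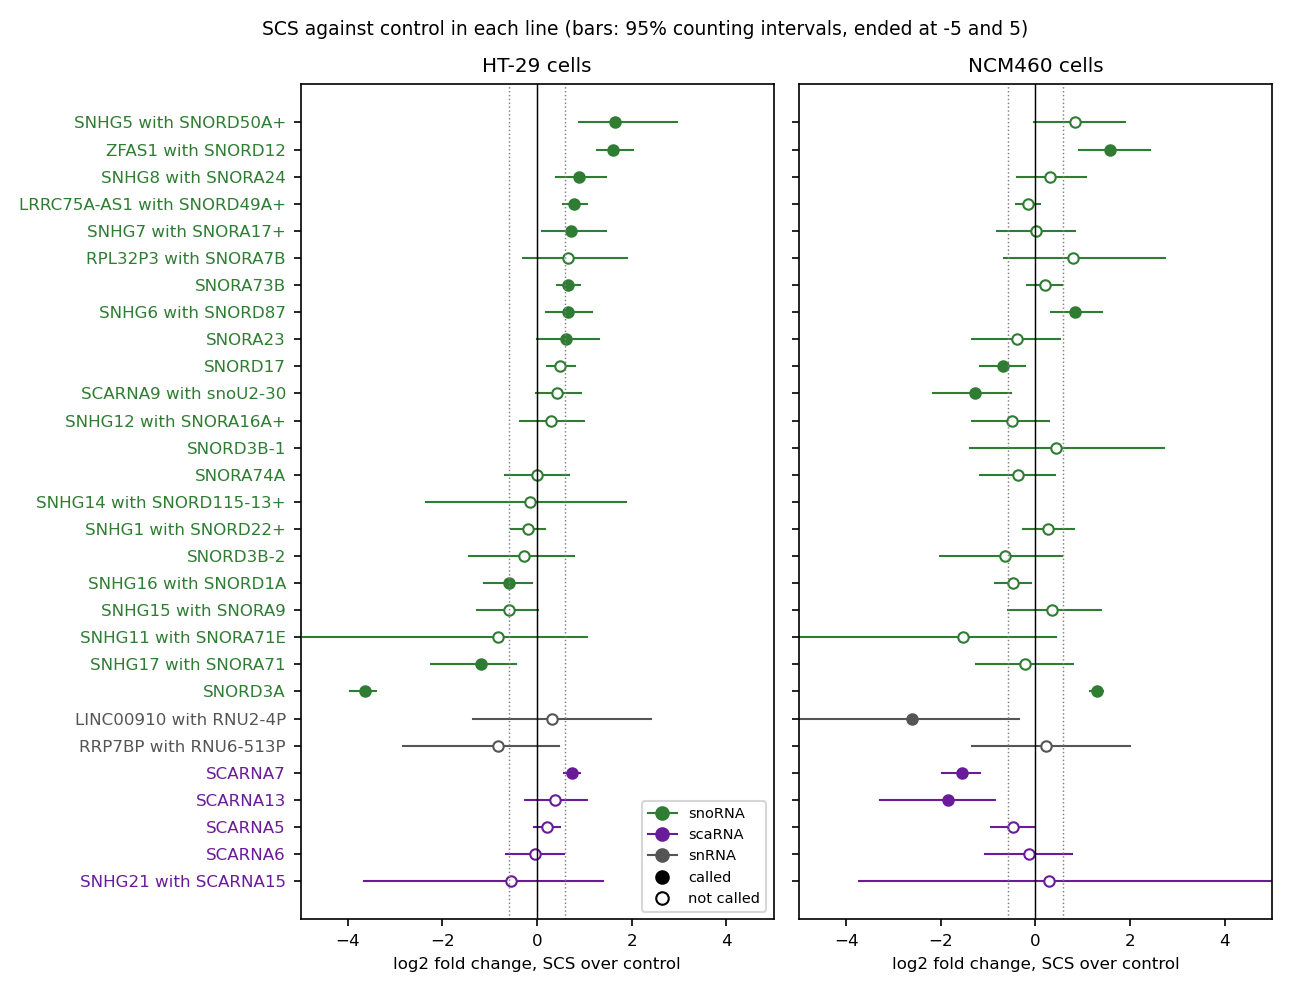
Log2 fold change of SCS over control for each member with at least 10 fragments in total that could be compared, in HT-29 (left) and NCM460 (right), with 95% counting intervals ended at -5 and 5, filled symbols for calls, and dotted lines at 1.5-fold. SNORD3A lies at -3.64 in HT-29 and 1.29 in NCM460, SCARNA7 at 0.73 and -1.55, and ZFAS1 with SNORD12 at 1.60 and 1.58.

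Set side by side, of 27 members compared in both lines 2 were called higher in both (4.22% of 10849 loci), ZFAS1 with SNORD12 and SNHG6 with SNORD87, and none lower in both (3.36%). A pair went opposite ways (3.83%), SNORD3A lower in HT-29 and higher in NCM460 and SCARNA7 the reverse, and these differences between the lines were not tested. SNHG6 with SNORD87 lost its call in both lines with the GC trend subtracted (0.50 and -0.04), and SCARNA7 lost its own in HT-29. With that trend subtracted ZFAS1 with SNORD12 and SNORA73B were higher in both lines (1.21% of loci), SNHG16 with SNORD1A lower in both (1.63%) and SNORD3A alone opposite (235 of 10808 loci). With total fragments only 5 members were higher in both (11.8%), none lower in both (0.315%) and 3 opposite (3.41%), SCARNA13 among them, so that only ZFAS1 with SNORD12, as higher in both, and SNORD3A, as opposite, stood under all 3. The direction of SNORD3A in each line held under every scaling, prior count and trend tried, and its value moved most with total fragments only, to -3.37 in HT-29 and 1.98 in NCM460. Under these settings SCARNA7 ranged from 0.47 to 1.01 in HT-29 and from -2.81 to -0.86 in NCM460. Of 14 listed RNAs needed to cut the ribosomal RNA precursor, 10 met the rule, 5 of them merged with protein-coding genes. The 5 member loci gave 1 rise and 1 fall of 4 compared in HT-29, with a median of -0.23, and 1 rise of 5 in NCM460, with a median of 0.26.

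A change shared by both lines was fitted by an additive edgeR model of line and treatment on the 4 libraries, with 1 residual degree of freedom. None of 32 members passed an adjusted p of 0.05 over all loci, beside 9 of 12942 loci (0.0695%). At an unadjusted p under 0.05 there was 1 member, ZFAS1 with SNORD12, with a log2 fold change of 1.63 (edgeR adjusted p = 0.593), higher with SCS in both lines. Over all loci 695 of 12942 were at such a p. DESeq2 with the same model also called 0 members, with 1 at an unadjusted p under 0.05, and called 27 of 12942 loci, with 230 at such a p. It gave an adjusted p for 9 of the 32 members. Without the filter on low values edgeR called 0 of 42 members, with 2 at an unadjusted p under 0.05, and 8 of 18650 loci, with 698 at such a p.

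Free-standing members cut from introns, and the merged locus of SCARNA9, were set beside the genes whose spans hold them, which were chosen after the values were seen. KPNA4, around SCARNA7, had 178 and 387 fragments in HT-29 and 20 and 27 in NCM460. It was above the control in HT-29, with a value of 0.88 (0.63 to 1.15) beside 0.73 for SCARNA7, and in NCM460 it was at -0.04 (-0.93 to 0.87), with SCARNA7 at -1.55. The NCM460 values were -1.19 for KPNA4 and -2.81 for SCARNA7 with the GC trend subtracted. The sorting nexin gene SNX5, merged with OVOL2 and around SNORD17, had 186, 161, 20 and 74 fragments. This locus went the reverse way of SNORD17 in each line, with values of -0.43 (-0.75 to -0.13) and 1.37 (0.69 to 2.21).

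The importin gene IPO7, around SNORA23, had 438, 560, 21 and 150 fragments and log2 fold changes of 0.12 in HT-29 and 2.31 (1.70 to 3.10) in NCM460, where SNORA23 stood at -0.39. MATR3 with SNHG4, around SNORA74A, a guide for large subunit ribosomal RNA, had 295, 273, 26 and 173 fragments and values of -0.34 and 2.22 (1.66 to 2.92). SNORA74A, with 36, 42, 28 and 30 fragments, stayed at -0.01 and -0.36. In NCM460 the SNX5, IPO7 and MATR3 loci were thus higher with SCS and their small RNAs were not. ATG16L1, around SCARNA5 and SCARNA6, had 38, 46, 23 and 24 fragments and was at 0.04 and -0.39 (-1.30 to 0.48), beside -0.48 and -0.14 for its small RNAs in NCM460. SNHG10, around SCARNA13, had 7, 7, 3 and 1 fragments, too few in NCM460 for a fold. CEP295, around SCARNA9, had 37, 47, 8 and 17 fragments and was at 0.11 and 0.56 (-0.68 to 2.03), the latter -0.50 with the GC trend subtracted. With the GC trend subtracted, the NCM460 values of SNX5, IPO7 and MATR3 were 0.37, 1.07 and 0.98, and that of SNX5 was then under the threshold. The locus of RCC1, SNHG3 and SNORA73A around SNORA73B had 442, 420, 253 and 304 fragments, with values of -0.30 and -0.21, while SNORA73B rose in HT-29 and was not called in NCM460.

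**Figure D4:**
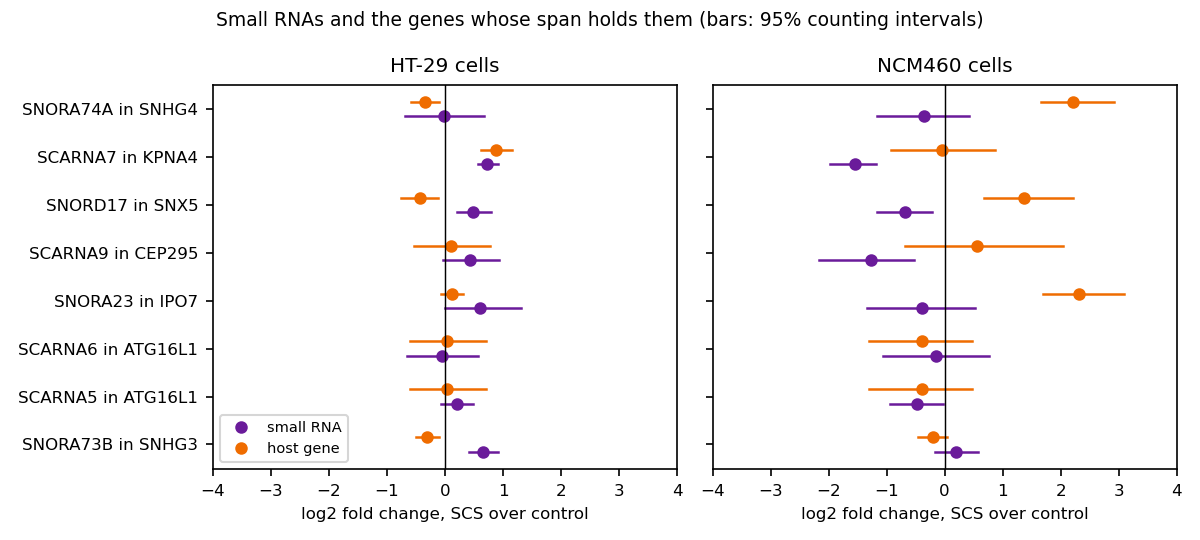
Log2 fold change of SCS over control with 95% counting intervals for free-standing or intron-held small RNAs and for the gene whose span holds each, in HT-29 (left) and NCM460 (right). In NCM460 the loci of IPO7 (2.31), MATR3 with SNHG4 (2.22) and SNX5 (1.37) lie above 0 and SNORA23 (-0.39), SNORA74A (-0.36) and SNORD17 (-0.69) below, and with the GC trend subtracted the host values are 1.07, 0.98 and 0.37.

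The proteins that assemble, carry and process these RNAs were described from 10 lists with 99 genes, 98 of which could be compared in each line. In HT-29, 3 (3.06%) were higher with SCS and 34 (34.7%) lower, against 16.8% and 14.8% of all loci, and with the GC trend subtracted none was higher and 37 lower. In NCM460, 28 (28.6%) were higher and 14 (14.3%) lower, against 15.4% and 13.8%, and with the GC trend subtracted 16 were higher and 6 lower. Of all loci called with this trend subtracted, 47.5% were higher in HT-29 and 47.2% in NCM460. The share of all loci called is not given for this setting, so its counts are not read as results about the listed genes. Medians of the lists are to be read beside all-loci medians of 0.07 in HT-29 and 0.03 in NCM460, which total fragments only would move to 0.31 and 0.65.

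In HT-29 the Sm ring, the protein ring around the spliceosomal snRNAs, had the lowest median, -1.19, and 6 of 7 genes compared fell. Its gene SNRPF had 67 and 24 fragments in HT-29 and 49 and 47 in NCM460, and fell in HT-29 by a log2 fold change of -1.60 (-2.45 to -1.02), and SNRPD2 had 174 and 185 in HT-29, at -0.14. The LSm ring, which binds U6, had a median of -0.73 with 4 of 7 lower, and LSM7 went from 37 to 17 fragments (-1.21). The Cajal body and SMN complex list, whose proteins load the Sm ring, had a median of -0.62 with 3 of 11 lower. In it GEMIN5, the subunit that recognises snRNAs, had 60, 15, 20 and 67 fragments and fell in HT-29, at a log2 fold change of -2.03 (-3.16 to -1.40).

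Core proteins of the guide particles were lower in part in HT-29. Of 4 box C/D core genes, 2 fell (median -0.47), among them NOP56, in a locus of 4 genes, with 262, 112, 62 and 108 fragments, at -1.43 in HT-29. The methyltransferase gene FBL had 257, 170, 168 and 190. Of 6 box H/ACA core genes 3 fell (median -0.45), and the assembly factor SHQ1 had 18 and 5 fragments (-1.59). Of 9 snoRNP assembly genes 4 fell (median -0.38), and TCOF1, a nucleolar protein of ribosomal DNA transcription, had 211, 60, 81 and 119 fragments and in HT-29 a value of -1.99 (-2.48 to -1.63). Of 15 particle-specific spliceosome proteins 6 fell (median -0.47), and PRPF31 of the U4/U6 particle had 109 and 69 fragments (-0.86).

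The remaining lists in HT-29 had medians nearer to that of all loci. Of 7 minor spliceosome proteins 1 fell, SNRNP25, from 32 to 6 fragments (-2.17), and the median was 0.13. Of 23 genes of snRNA transcription and 3′ end processing 3 rose and 3 fell, with a median of 0.02, and with the GC trend subtracted none rose (INTS6 0.55). The Integrator subunit INTS6 had 133 and 278 fragments (0.82) and INTS2 19 and 5 (-1.66). Of 9 genes of export, capping and decay 2 fell (median -0.10), among them the intron lariat debranching enzyme DBR1, with 22 and 7 fragments (-1.52).

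In NCM460 the medians of several lists were above 0, the highest in export, capping and decay (1.06, 4 of 9 higher) and in the Cajal body and SMN complex list (0.83, 3 higher and 1 lower of 11). With the GC trend subtracted these medians were 0.36 and 0.14, with 1 and 3 genes higher. TGS1, which further methylates the cap of snRNAs and of U3, had 1 and 17 fragments in NCM460, a log2 ratio of 3.61 with a counting interval from 0.94. COIL, the scaffold of the Cajal body, had 3 and 28, a log2 ratio of 2.75 (1.05 to 5.11). Both were higher with SCS from very few control fragments. Values named log2 ratios have no prior count added. With the prior count of 2, TGS1 was at 2.73 and COIL at 2.41. Of the genes named below, LSM5 was then at 2.22, SNAPC3 at 2.77 and SNRNP48 at 1.73.

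For the Sm ring in NCM460 2 of 7 genes rose (median 0.54), and 3 were higher and 1 lower with the GC trend subtracted (median -0.35). SNRPE had 9 and 43 fragments (1.68, with a counting interval from 0.73). Of the LSm genes 2 were higher and 1 lower (median -0.29), and none higher and 1 lower with the GC trend subtracted (median 0.25). There LSM5 had 2 and 18 fragments, a log2 ratio of 2.70 (0.63 to 5.85), and LSM2 30 and 23 (-0.82). In snRNA transcription and processing 10 of 23 were higher and 4 lower (median 0.27), and 7 and 1 with the GC trend subtracted (median 0.16). In this list SNAPC3, of the complex that starts snRNA transcription, had 2 and 27 fragments, a log2 ratio of 3.28 (1.29 to 6.40), and the Integrator subunit gene INTS3, in a merged locus of 2 genes, 42 and 25 (-1.18).

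The particle-specific list had more falls than rises in NCM460, 6 lower and 2 higher of 15 (median -0.35), and none higher and 2 lower with the GC trend subtracted (median -0.20). SNRPB2 of the U2 particle had 5 and 34 fragments (2.09) and PRPF6 of the U5 particle 69 and 35 (-1.42). Among guide particle lists the box C/D core had 1 rise of 4 (median 0.16), NOP58, in a locus of 2 genes, with 7 and 26 fragments (1.30), and the H/ACA core 1 of 6 (median -0.10), DKC1, the pseudouridine synthase, in a locus of 3 genes, with 12 and 40. No box C/D core gene was called with the GC trend subtracted (NOP58 0.35), and 1 H/ACA core gene was higher and 1 lower. Assembly factors gave 1 rise and 2 falls of 9 (median 0.44), and RUVBL2 had 210 and 169 fragments (-0.78). Less the GC trend there was 1 rise and no fall (median -0.11), with RUVBL2 at -0.11. Minor spliceosome proteins gave 2 rises of 7 (median -0.17), SNRNP48 with 3 and 17 fragments, a log2 ratio of 2.03 (0.24 to 4.44), and none with the GC trend subtracted (median 0.11).

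**Figure D5:**
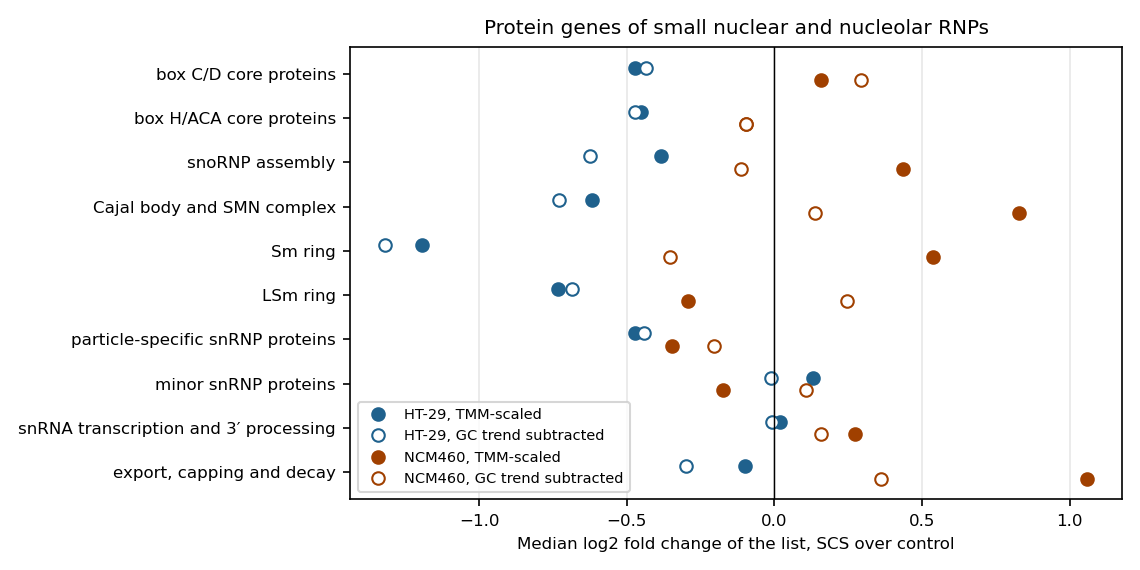
Median log2 fold change of SCS over control of each list of small RNP protein genes, in HT-29 and NCM460, TMM-scaled (filled) and with the GC trend subtracted (open). In HT-29 the Sm ring lies lowest, at -1.19, and in NCM460 export, capping and decay lies highest, at 1.06 before and 0.36 after subtraction, while the Sm ring there goes from 0.54 to -0.35.

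Related RNAs that the table lists under other biotypes were looked at after the members' values were seen. RN7SK, the RNA that holds back a transcription elongation kinase, had 51796, 78406, 46453 and 30218 fragments and log2 fold changes of 0.37 (0.35 to 0.38) and -1.09 (-1.11 to -1.07), so it stood above the control in HT-29 and below it in NCM460, as SCARNA7 did. SCARNA10, listed as sense intronic, had 645, 780, 592 and 320 fragments, with values of 0.04 and -1.36 (-1.56 to -1.16). SCARNA2, listed as a long noncoding RNA, had 144, 263, 196 and 204 fragments, with values of 0.63 (0.34 to 0.94) and -0.41. RNU12, the U12 snRNA of the minor spliceosome, is listed as a long noncoding RNA and had 15, 14, 39 and 32 fragments. Its values were -0.28 (-1.49 to 0.82) in HT-29 and -0.73 (-1.48 to -0.05) in NCM460. The ribonuclease RNAs RMRP and RPPH1 were at 0.15 and 0.47 in HT-29 and 0.10 and -0.19 in NCM460. TERC, the telomerase RNA, had 131, 203, 192 and 189 fragments, with values of 0.39 and -0.49 (-0.79 to -0.20). Under other scalings SCARNA10 stayed past 1.5-fold below the control in NCM460, at -1.74 with the GC trend subtracted and -0.66 with total fragments only. RN7SK was then at -0.48 and -0.40, under the threshold, and RNU12 at -0.74 and -0.06. SCARNA2 (0.32 and 0.28) and TERC (0.24 and 0.20) were then above the control, so their direction in NCM460 depends on the scaling. That of RPPH1 does too (0.53 and 0.50), and RMRP was then past the threshold, at 0.81 and 0.79.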

How the data were processed

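RNA-seq of 2 cell lines with and without SCS, 1 library per group, was analysed, and groups follow the submitters' labels. Per the submitters' processing notes, reads went through bcl2fastq 2.17.1.14, cutadapt 1.9.1, Bowtie2 and HTSeq 0.6.1, and the paper names TRIzol extraction and Cuffdiff. The notes name hg19, while the positions in the table match GRCh38 (94.3% of 54057 identifiers found in GENCODE release 29 have the same position there). The count columns the authors deposited hold a signal, fragment counts divided by a size factor of the library, and not the whole counts that the design had assumed. The FPKM values the authors deposited are scaled by transcript length and library size. One fragment was worth 0.686, 0.577, 2.04 and 1.33 in the columns (HT-29 untreated and treated, NCM460 untreated and treated). Division by this worth gave whole numbers, within 0.1, for 99.9%, 99.9%, 100% and 99.9% of values above 0. The recovered fragments were used, and the count test on them called 9 of 12942 loci. Among 64962 listed genes 26 had no name, with 0.0205%, 0.0352%, 0.00581% and 0.0125% of fragments, and were left out. Merging adjacent genes with identical values gave 18650 loci, of which 1812 hold more than 1 gene. The strand of the libraries is not stated, and fragments of near-identical copies may be assigned to any of them.

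TMM factors from edgeR 4.0.16 (1.24, 1.50, 0.578 and 0.935) scaled the 4 libraries. Loci averaging 1 CPM or more in a line were compared by the log2 fold change with a prior count of 2, with exact 95% Clopper-Pearson intervals. The floor of 3 fragments was 1.47, 1.25, 3.85 and 2.77 CPM, so small changes are resolved better in HT-29. A fold against 0 was taken against this floor. Values named log2 ratios, used at very few fragments, have no prior count added. Fragments are not independent molecules, and floors and the intervals of loci and shares cover counting error only. Intervals of medians are order statistics over members and describe their spread. Changes shared by both lines were fitted with edgeR and with DESeq2 1.42.0 in R 4.3.3, adjusted over all loci. Python 3.11.15 with pandas 2.3.3, SciPy 1.17.1 and statsmodels 0.14.6 served for the other steps, which were tested on simulated data.

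The alternatives were DESeq2's size factors, total fragments only, the scale of the deposited columns, a prior count of 0.5, a mean of at least 5 CPM, all members with 1 fragment or more, members of 1 gene only, a lowess trend (span 0.3) on GC content or length subtracted, and FPKM with 0.1 added. GC content and length were those of the GENCODE gene models, found for 98.9% of loci. Members were named if they belonged to the spliceosomal, U7 or rRNA-processing classes with a mean of at least 10 CPM, if they were among the 3 largest rises or falls called in a line and biotype with at least 10 fragments, among the 3 most abundant of a biotype, or a scaRNA that was called. Of each protein list the highest and lowest member at a mean of at least 5 CPM qualified. Other members, host genes and related RNAs were picked once values had been seen. The members and lists were chosen with earlier results of these data known.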

Additional observations from a re-analysis of the deposited data

Results flagged for a closer look

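The log2 fold changes of SNORD3A with SCS went opposite ways in the lines, -3.64 in HT-29 and 1.29 in NCM460, a difference of -4.93. SCARNA7 went opposite ways in the reverse sense, 0.73 in HT-29 and -1.55 in NCM460, a difference of 2.28, and its HT-29 value was no longer called with the GC trend subtracted (0.47). Each line has 1 library per condition, so neither difference between the lines was tested.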

How the results depend on the processing

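Of the counts and medians recomputed, 85 kept within the counting limits of their reported value and 11 moved, and of single members 280 kept, 27 moved and 1 changed sign after being called. Of values not called, 3 in HT-29 and 10 in NCM460 changed sign, with total fragments only or a trend subtracted. With total fragments only, the snoRNA median was 0.70 in HT-29 and 0.59 in NCM460, and 9 members were higher and 2 lower in NCM460. This scaling moved the median of all loci from 0.07 to 0.31 and from 0.03 to 0.65, and calls of all loci that were higher from 53.1% to 73.8% and from 52.7% to 94.1%. On the deposited scale the NCM460 values were -0.11 and 42.0%. With members of 1 gene only, where fewer loci are counted, 3 were higher and 1 lower in HT-29 and 1 higher and 3 lower in NCM460. With the GC trend subtracted, 8 members were lower in NCM460, and SNHG6 with SNORD87 was reversed to -0.0405. With the length trend subtracted, 5 members were higher in NCM460 and the snRNA median was 0.33. Of all loci called in NCM460, 47.2% were higher with the GC trend and 42.7% with the length trend subtracted. The cause was not tested. Shares of all loci called are not given for these settings, so their counts of members are not read as results about the members. No snRNA member of HT-29 was left at a mean of at least 5 CPM or among members of 1 gene, so no median is given there. Members under 10 fragments, 13 of 42, are limited by depth.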
